A study of Mus musculus with 4 samples.

Results

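RNA sequencing of macrophages from mice with and without a conditional G3bp1 deletion was examined for 10 genes that act in the recognition and engulfment of apoptotic cells. The genes were selected by symbol, and all 10 were found among the 34745 genes of the table. Mertk and Axl encode receptor tyrosine kinases, Gas6, Pros1 and Mfge8 encode secreted bridging proteins, Timd4 and Megf10 encode further receptors, and Gulp1, Elmo1 and Dock1 encode intracellular engulfment proteins. The libraries came from primary mouse macrophages, which the study describes as bone marrow-derived macrophages (BMDMs), grown in DMEM with fetal bovine serum. The 2 WT libraries carried the genotype label WT, and per the study these controls are mice with a floxed G3bp1 gene (G3bp1 f/f). The 2 KO libraries were labelled G3bp1mac-/-, a line in which Cre under the Lyz2 promoter removes the floxed gene in macrophages and in other myeloid cells such as neutrophils. No stress, allergen or apoptotic cell treatment is named for these libraries, and neither age nor sex nor pooling of mice is given for them.

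Efferocytosis, the clearance of apoptotic cells, starts when a phagocyte senses phosphatidylserine exposed on the dying cell. TIM-4, the product of Timd4, binds this lipid directly, whereas MERTK binds it through GAS6 or protein S, AXL through GAS6, and integrins bind it through MFG-E8. Downstream, the ELMO1 and DOCK1 proteins activate the small GTPase RAC1 to extend the membrane around the target, and GULP1 is an adaptor that binds the cytoplasmic tails of receptors such as LRP1. In macrophages, MERTK is known mainly for steady state clearance, and AXL is known as a receptor induced by inflammatory stimuli.

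The libraries held 16724241 to 19747909 gene counts, and the filter on low counts kept 12418 genes, including 9 of the 10 members. CPM below are counts scaled to the size of the library after TMM correction, and FPKM are the authors' values scaled by library total and gene length. The limit that a count of 0 allows, 3 counts, corresponded to 0.152 to 0.188 CPM, which covers counting error only. The targeted gene G3bp1 reached 104 and 180 CPM in WT and 70.1 and 117 CPM in KO. KO was lower within each library number (log2 ratios -0.57 and -0.63), but the genotypes overlapped and the fitted log2 fold change of G3bp1, -0.61 (SE 0.40), had an edgeR quasi-likelihood adjusted p of 0.904. The 8 macrophage markers, led by Lyz2, Cd68, Adgre1 and Csf1r, summed to between 21030 and 26280 CPM in each library. The 10 stromal markers, of which the most abundant were Dcn, Pdgfra, Col1a2 and Col3a1, summed to 80.8 and 94.5 CPM in WT and to 354 and 330 CPM in KO, and 9 of the 10 had both KO libraries above both WT libraries, as 20.0% of all tested genes did. Markers of neutrophils summed to 22.1 and 21.2 CPM in WT against 7.72 and 11.3 CPM in KO, with Mpo and Elane at 0 throughout. Those of B cells summed to 21.4 and 22.5 CPM against 11.6 and 10.9 CPM, and those of erythroid cells to 10.3 and 7.34 CPM against 1.88 and 2.39 CPM. Dendritic cell markers reached at most 8.97 CPM, endothelial markers 7.08 CPM and platelet markers 1.13 CPM, with Tek, Emcn, Cldn5 and Gp9 at 0. In bulk RNA a change in the number of such cells and a change in their RNA content cannot be told apart.

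Per length, the levels of the 10 genes spanned from abundant to barely detected. Mfge8 stood far above the rest, with a mean of 103.9 FPKM over the 4 libraries and the place 454 among the 12418 tested genes in order of FPKM. Its lowest library, at 90.5 FPKM, lay above the highest value of any other member, 15.7 FPKM for Gas6. Pros1, Gas6, Mertk, Axl and Elmo1 followed at means of 12.5, 10.2, 8.33, 5.23 and 4.91 FPKM, and each of these neighbours overlapped the next over the 4 libraries. Dock1 (2.84 FPKM) lay below Elmo1 in every library, and its range overlapped that of Timd4 (1.01 FPKM), which in turn overlapped that of Gulp1. Gulp1 had a mean of 0.0849 FPKM and Megf10 of 0.0127 FPKM, and their ranges overlapped too. The order was thus resolved at the top between Mfge8 and Pros1 and in the middle between Elmo1 and Dock1. Elsewhere adjacent genes were not separated. With the exon lengths of GENCODE release M21 in place of the lengths implied by the authors' FPKM, 8 of the 10 genes kept their place, and Mertk and Gas6 exchanged theirs.

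**Figure D1:**
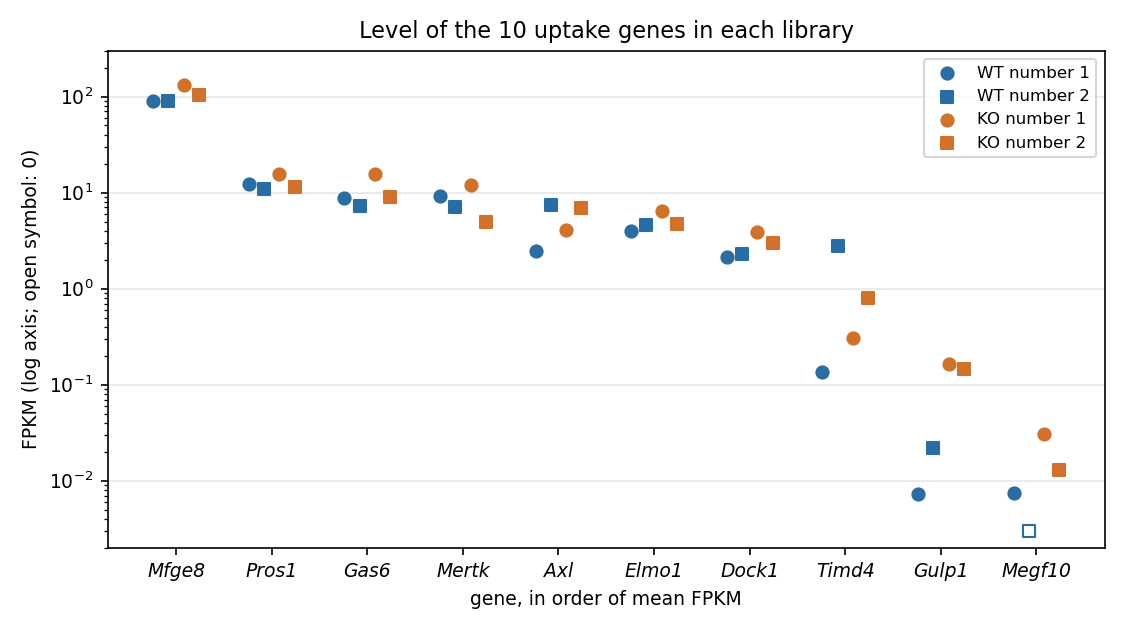
FPKM of each gene (log axis) in the 2 WT libraries (blue) and the 2 KO libraries (orange), with circles for number 1 and squares for number 2; the open square stands for a value of 0. Mfge8 lies above 90 FPKM in every library, while Timd4, Gulp1 and Megf10 reach at most 2.80 FPKM.

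The 250 bases before the RefSeq transcription start (GRCm38.p6) are shown for the 4 members whose libraries differed most, Mertk and Axl because they moved in opposite directions between the library numbers, Timd4 because of its spread, and Gulp1 because of its difference between genotypes. They lie at chr2:128698665-128698914 on the plus strand for Mertk, chr7:25788734-25788983 on the minus strand for Axl, chr11:46810549-46810798 on the plus strand for Timd4 and chr1:44551421-44551670 on the plus strand for Gulp1. Each is written 5′ to 3′ on the gene's strand, with CG dinucleotides in capitals.
Mertk: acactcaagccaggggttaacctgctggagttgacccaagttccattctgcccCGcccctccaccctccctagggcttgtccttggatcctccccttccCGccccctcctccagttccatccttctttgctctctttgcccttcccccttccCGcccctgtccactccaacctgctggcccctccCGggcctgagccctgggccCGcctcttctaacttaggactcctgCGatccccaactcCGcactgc
Axl: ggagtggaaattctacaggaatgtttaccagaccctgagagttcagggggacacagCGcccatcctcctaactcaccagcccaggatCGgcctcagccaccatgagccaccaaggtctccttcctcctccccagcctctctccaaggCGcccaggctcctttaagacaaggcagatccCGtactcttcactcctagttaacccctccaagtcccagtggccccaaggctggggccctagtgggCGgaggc
Timd4: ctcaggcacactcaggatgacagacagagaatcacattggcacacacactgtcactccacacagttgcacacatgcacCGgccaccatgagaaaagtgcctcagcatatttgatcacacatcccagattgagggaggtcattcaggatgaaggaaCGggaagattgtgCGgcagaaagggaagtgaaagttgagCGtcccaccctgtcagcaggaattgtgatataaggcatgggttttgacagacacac
Gulp1: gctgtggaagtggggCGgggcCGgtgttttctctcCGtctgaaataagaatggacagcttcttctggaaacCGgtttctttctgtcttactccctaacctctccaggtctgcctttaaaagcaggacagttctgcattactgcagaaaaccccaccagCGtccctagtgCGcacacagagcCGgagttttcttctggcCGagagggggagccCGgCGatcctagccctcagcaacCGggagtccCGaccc

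The number of CG dinucleotides in these windows was 7 for Mertk, 5 for Axl, 4 for Timd4 and 12 for Gulp1, where the median over 32851 RefSeq promoter entries was 6. The near-silent Gulp1 therefore had as many as Mfge8, the most abundant member, which also had 12. The other members had 10 for Gas6, 15 for Pros1 and 29 for Dock1, and the 2 entries of Elmo1 had 21 and 5. The hexamer AGGTCA, the core of many nuclear receptor sites, was present on either strand for Timd4 alone among the 9 matched genes, and 14.0% of all entries hold it. The STAT type motif TTCNNNGAA was present for Pros1 and for 1 entry of Elmo1, against 7.02% of all entries. The TATA motif TATAAA was present for the other entry of Elmo1, against 12.4% of all entries. No overlap between motifs was considered.

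Neither of the kinase receptors differed between KO and WT beyond the spread of the libraries. Mertk (ENSMUSG00000014361, chromosome 2, 128698956 to 128802894 on the plus strand, 19 exons in its main transcript) was counted 954 and 738 times in the WT libraries and 1232 and 595 times in the KO libraries, which gave 58.8, 46.3, 66.1 and 30.2 CPM in that order. The KO libraries thus held both the highest and the lowest level. The fitted log2 difference of KO from WT for Mertk was -0.13 (SE 0.42, with a 95% interval from -1.19 to 0.94, edgeR adjusted p 0.987). Axl (ENSMUSG00000002602, chromosome 7, 25757273 to 25788705 on the minus strand, 20 exons) was counted 362 and 1070 times in the WT libraries and 586 and 1167 times in the KO libraries, which gave 22.3, 67.1, 31.4 and 59.3 CPM. Both libraries numbered 2 were high and both numbered 1 were low, so the genotypes overlapped fully. The log2 fold change of Axl was 0.021 (SE 0.59, interval -1.49 to 1.53, edgeR adjusted p 0.996), an interval that holds changes of more than 2-fold in either direction. Tyro3, the other member of this receptor family, had only 3 to 6 counts in any library and was not tested.

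Among the bridging proteins, GAS6 and protein S are the ligands of this receptor family. Gas6 (ENSMUSG00000031451, chromosome 8, 13465374 to 13494535 on the minus strand, 15 exons) encodes a vitamin K dependent ligand of MERTK and AXL. The WT libraries held 385 and 316 of its counts and the KO libraries 681 and 463, which gave 23.7, 19.8, 36.5 and 23.5 CPM. The lower KO library fell just under the higher WT library, and the log2 fold change was 0.46 (SE 0.30, interval -0.29 to 1.21, edgeR adjusted p 0.904). Pros1 (ENSMUSG00000022912, chromosome 16, 62854307 to 62929346 on the plus strand, 15 exons) encodes protein S, an anticoagulant that also activates MERTK. The WT libraries held 950 and 847 of its counts and the KO libraries 1198 and 1029, which gave 58.5, 53.1, 64.3 and 52.2 CPM, and the groups overlapped. Its log2 fold change was 0.061 (SE 0.24, interval -0.54 to 0.66, edgeR adjusted p 0.990). The FPKM ratio of Gas6 to Pros1 was 0.716 and 0.659 in WT and 1.00 and 0.795 in KO, so Gas6 took a larger share of the pair in both KO libraries, a difference that was not tested.

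Mfge8 (ENSMUSG00000030605, chromosome 7, 79133768 to 79149060 on the minus strand, 10 exons) encodes MFG-E8, which links phosphatidylserine to integrins. The WT libraries held 12310 and 12314 of its counts and the KO libraries 17475 and 16354, which gave means of 765 ± 9.83 CPM for WT and 884 ± 75.6 CPM for KO (SD, n = 2 each). The KO libraries, at 937 and 830 CPM, did not overlap the WT libraries, at 758 and 772 CPM. The difference was small, with a log2 fold change of 0.21 (SE 0.21, interval -0.32 to 0.74) and an edgeR adjusted p of 0.957.

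The directly binding receptor Timd4 (ENSMUSG00000055546, chromosome 11, 46810800 to 46844332 on the plus strand, 9 exons) was low and the most uneven of the tested members. TIM-4 is known as a receptor of tissue-resident macrophages. Timd4 was counted 5 and 103 times in the WT libraries and 11 and 34 times in the KO libraries, which gave 0.308, 6.46, 0.590 and 1.73 CPM. A single WT library held the highest level and the other WT library the lowest. The log2 fold change was -1.54 (SE 1.28, interval -4.79 to 1.72, edgeR adjusted p 0.943), and it turned to 1.86 without WT replicate 2. Of the 8 markers of tissue-resident macrophages, Clec4f was at 0, and Lyve1 and Cd163 had at most 7 counts in any library. Cd5l, Folr2, Vsig4 and Marco made up nearly all of the list, which summed to 178 and 163 CPM in WT and to 183 and 208 CPM in KO. Its members went different ways, with Cd5l higher in KO (log2 fold change 0.85, unadjusted p 0.0105, edgeR adjusted p 0.391) and Folr2 lower (-0.79, unadjusted p 0.0459, edgeR adjusted p 0.731), both without overlap and neither past the threshold. By library number, 1 of the 5 tested markers had both libraries numbered 2 above both numbered 1, near the 25.2% of all tested genes. This was Spic, with log2 ratios of 1.61 in WT and 2.08 in KO, a gene too low to weigh in the sum. The ratios were 0.49 and 0.66 for Marco, -0.072 and 0.042 for Cd5l, -0.42 and 0.55 for Folr2, and -0.19 and 0.11 for Vsig4. The part of such cells in the Timd4 counts was not tested. Megf10 (ENSMUSG00000024593, chromosome 18, 57133090 to 57297467 on the plus strand, 25 exons) encodes a receptor for C1q on apoptotic cells that is best known from astrocytes. Its counts were 1 and 0 for WT against 4 and 2 for KO, and it was the only member that did not pass the filter. At this depth no difference in Megf10 was detectable.

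Gulp1 (ENSMUSG00000056870, chromosome 1, 44551511 to 44796838 on the plus strand, 11 exons) had the largest log2 fold change of the 9 tested members. Gulp1 was counted 1 and 3 times in the WT libraries and 22 and 23 times in the KO libraries, which gave 0.0616, 0.188, 1.18 and 1.17 CPM. The KO libraries were nearly equal to each other and stood well apart from WT. Pooled over libraries, 45 counts in KO against 4 in WT gave a ratio of 9.44 after scaling (exact 95% interval 3.44 to 36.1, counting error only). The ratio was 19.2 within number 1 (interval 3.10 to 790.3) and 6.21 within number 2 (interval 1.88 to 32.3). In the quasi-likelihood fit the log2 fold change was 3.17 (SE 0.67, interval 1.46 to 4.87), with an unadjusted p of 0.00473 and an edgeR adjusted p of 0.294, so Gulp1 did not pass the threshold. Leaving out WT replicate 1 gave 2.60, and leaving out WT replicate 2 gave 4.08. Gulp1 passed the filter on low counts only through its KO libraries, so a tested Gulp1 had to be higher in KO and its place in any tally below is partly fixed by that filter. Under the edgeR exact test it passed, with an adjusted p of 0.0120, as 1 of 9 members where that test called 1.55% of all tested genes higher in KO. The transcript stayed scarce in both genotypes, below 0.2 FPKM in every library. Overlapping Gulp1 are 4 annotated genes, of which the 3 in the table had 0 counts in all libraries.

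Of the 10 stromal markers, 0 were called by the edgeR quasi-likelihood test, which called 0% of all tested genes. The edgeR exact test, which called 1.84% of all tested genes, called 7 (Acta2, Col1a1, Col1a2, Col3a1, Dcn, Pdgfra and Postn). The DESeq2 Wald test, which called 1.46% of all tested genes, called the same 7. The summed level of the 10 markers was higher in both KO libraries than in both WT libraries, at 354 and 330 against 80.8 and 94.5 CPM. None of the 10 was at 0 in all libraries. Of the 10, 8 had an unadjusted p under 0.05 with KO higher, against 4.64% of all tested genes, with log2 fold changes from 1.55 for Tagln to 2.68 for Col1a1, and the 2 most abundant, Dcn and Pdgfra, had 1.58 and 2.07 (edgeR adjusted p 0.215 for both). Lum reached the count minimum in 0 of the WT libraries, and Postn and Pdgfrb in 1 each, so all of these were tested only because of their KO libraries. The places of Postn among the 7 called and the 8 with a low p are therefore partly fixed by that filter. The same holds for Lum and Postn among the 9 markers whose genotypes did not overlap. The part of these cells in the Gulp1 counts was not tested.

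**Figure D2:**
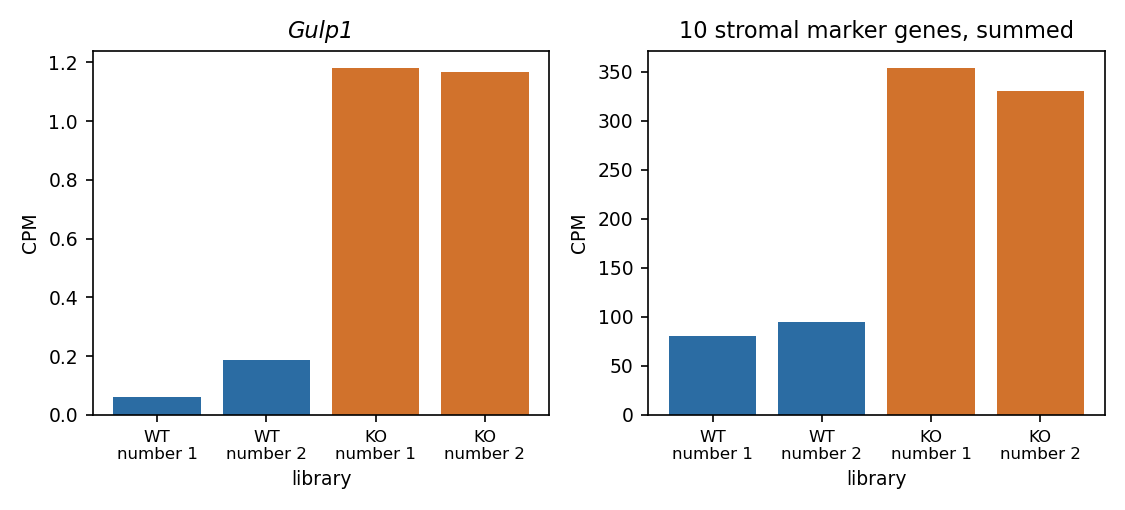
CPM of Gulp1 (left) and the summed CPM of the 10 stromal markers (right) in each of the 4 libraries, WT in blue and KO in orange, 1 bar per library. In both panels the KO bars are of about the same height and stand above both WT bars, 1.18 and 1.17 CPM on the left and 354 and 330 CPM on the right.

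The ELMO1 and DOCK1 proteins form the exchange factor that loads RAC1 with GTP. Elmo1 (ENSMUSG00000041112, chromosome 13, 20090596 to 20606528 on the plus strand, 22 exons) was counted 707 and 814 times in the WT libraries and 1129 and 965 times in the KO libraries, which gave 43.6, 51.1, 60.6 and 49.0 CPM, and the groups overlapped. Its log2 fold change was 0.21 (SE 0.24, interval -0.41 to 0.83, edgeR adjusted p 0.963). Dock1 (ENSMUSG00000058325, chromosome 7, 134670687 to 135173639 on the plus strand, 52 exons) was counted 246 and 266 times in the WT libraries and 445 and 403 times in the KO libraries, which gave 15.2, 16.7, 23.9 and 20.5 CPM. Here the genotypes did not overlap, with KO higher. The log2 fold change of Dock1 was 0.48 (SE 0.23, interval -0.10 to 1.05, edgeR adjusted p 0.842), which did not pass the threshold. The FPKM ratio of Elmo1 to Dock1 was 1.87 and 1.99 in WT and 1.65 and 1.55 in KO.

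The 9 tested genes were then read together against all tested genes. The call required more than a 2-fold change with the edgeR quasi-likelihood adjusted p below 0.05. By it 0 of the 9 members and 0 of the 12418 genes were called, a background of 0%. The edgeR exact test called 1.84% of all tested genes at the same limits. The study reports differentially expressed genes for this comparison from edgeR at these limits and does not name the edgeR test. At an unadjusted quasi-likelihood p under 0.05, 1 of the 9 members was higher in KO (Gulp1, which the filter admitted only through KO) and 0 were lower. Of all tested genes, 4.64% were higher and 1.99% lower. KO stood above WT without overlap for 3 of the 9 (Gulp1, Dock1 and Mfge8) and below it for 0, where the background was 20.0% above and 16.9% below. The median log2 fold change of the members was 0.21, and that of all tested genes was 0.041. The value was above 0 for 7 of the 9, Gulp1 among them and Mertk and Timd4 being the exceptions. It was above 0 for 6776 of the 12418 tested genes. Within number 1 the median log2 ratio of KO to WT was 0.49 for the members and 0.11 for all tested genes, and within number 2 it was -0.024 and -0.0013. Only Gulp1, Dock1, Gas6 and Mfge8 had ratios above 0 within both numbers, at 3.71 and 2.44, 0.65 and 0.29, 0.62 and 0.25, and 0.31 and 0.10. In the 5 other members the ratio was positive within number 1 and negative within number 2, at 0.17 and -0.62 for Mertk, 0.49 and -0.18 for Axl, 0.13 and -0.024 for Pros1, 0.47 and -0.059 for Elmo1 and 0.86 and -1.89 for Timd4.

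**Figure D3:**
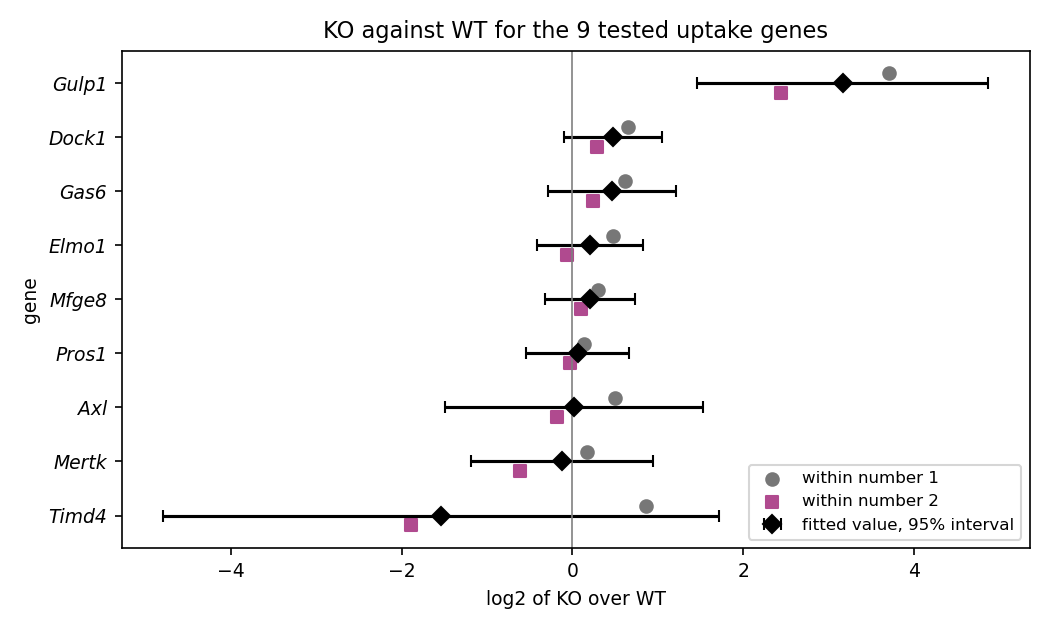
Log2 ratio of KO to WT for the 9 tested genes, with the fitted value and its 95% confidence interval (black diamonds, 2 libraries per genotype) and the ratios within number 1 (grey circles) and within number 2 (purple squares). The interval of Gulp1, 1.46 to 4.87, is the only one that does not cross 0, and its adjusted p was 0.294.

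For several members the difference between libraries numbered 1 and 2 was larger than that between genotypes. The labels do not say what a number stands for, and these ratios were not tested. Axl was higher in both libraries numbered 2 than in both numbered 1, by a log2 ratio of 1.59 in WT and 0.91 in KO, and so was Timd4, by 4.26 and 1.51. Mertk was lower in both libraries numbered 2, with ratios of -0.34 in WT and -1.13 in KO, as were Gas6 at -0.26 and -0.64 and Pros1 at -0.14 and -0.30. In all, 2 of the 9 members had both libraries numbered 2 above both numbered 1 and 3 had them below, where the background was 25.2% and 23.2% of all tested genes. Because Mertk and Axl moved in opposite directions, their balance differed. The FPKM ratio of Mertk to Axl was 3.69 in WT and 2.94 in KO for number 1, and 0.965 in WT and 0.714 in KO for number 2. The 2 genotypes of a number were thus closer to each other in this ratio than the 2 numbers of a genotype. For Elmo1, Dock1 and Mfge8 the ratio was above 0 in WT and below 0 in KO, from -0.31 to 0.23.

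**Figure D4:**
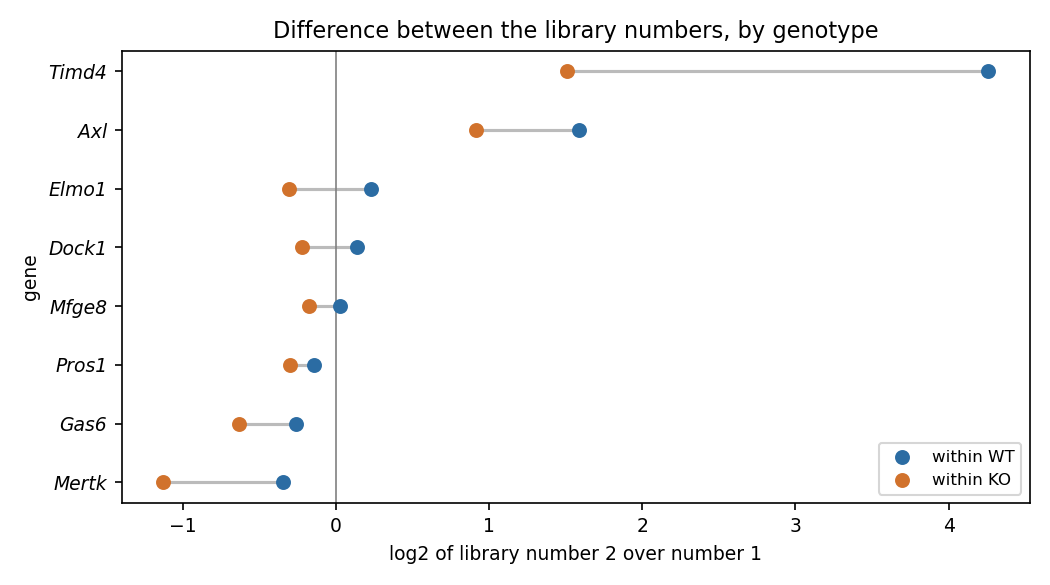
Log2 ratio of the library numbered 2 to that numbered 1 within WT (blue) and within KO (orange) for 8 tested genes; Gulp1 is left out because its WT libraries held 1 and 3 counts. Axl and Timd4 lie to the right of 0 in both genotypes and Mertk, Gas6 and Pros1 to the left in both.

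Other genes of the same pathway were examined from 4 lists. The main test called 0 of the 12418 tested genes, so a count of 0 called was fixed for every list. Of all tested genes, 6776 lay above 0 and 5642 below, with a median log2 fold change of 0.041. Of 20 further receptors, 13 were tested and 0 were called in either direction, with 8 above 0 and a median log2 fold change of 0.12. As for Mertk, both libraries numbered 2 lay below both numbered 1 for 8 of these 13, and above them for 2, where the shares of all tested genes were 23.2% and 25.2%. Cd36 and Trem2, lipid-sensing receptors picked here after their values were seen, had means of 392 ± 23.4 and 255 ± 77.6 FPKM in WT (SD, n = 2) and 383 ± 16.6 and 221 ± 12.8 FPKM in KO, well above the levels of Mertk and Axl per length. Of 11 bridging molecules, 10 were tested, 0 were called, and 6 lay below 0, with a median of -0.28. C1qb and C1qc, chains of the complement component C1q that coats apoptotic cells, were the genes of this list with an unadjusted p under 0.05, and both were lower in KO. Without overlap, 5 of the 10 lay below WT and 3 above it (C3, Calr and Edil3), where 16.9% and 20.0% of all tested genes did. C1qb had 613 and 595 CPM in WT and 350 and 425 CPM in KO, a log2 fold change of -0.64 (edgeR adjusted p 0.676). C1qc had 462 and 404 CPM in WT and 261 and 298 CPM in KO, a log2 fold change of -0.63 (edgeR adjusted p 0.688). Neither passed the threshold. C3, the central complement component, went the other way by a larger amount, with 34.7 and 90.6 CPM in WT and 129 and 156 CPM in KO, a log2 difference of 1.18 (unadjusted p 0.0564, edgeR adjusted p 0.777).

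Of 22 engulfment signalling genes, all 22 were tested and 0 were called, with 15 above 0 and a median of 0.14. Bcar1, which encodes the adhesion adaptor p130Cas, was counted 8 and 18 times in WT and 60 and 48 times in KO. Its log2 fold change was 1.79 with an SE of 0.53 and an edgeR adjusted p of 0.509. Of 15 regulators, among them liver X receptors, sheddases and enzymes of vitamin K dependent carboxylation, 15 were tested, 0 were called and the median was 0.022. Twist1, a transcription factor of mesenchymal cells that is also known as a target of AXL signalling, was counted 7 and 8 times in WT and 35 and 17 times in KO (log2 fold change 1.54, edgeR adjusted p 0.736). Like Gulp1, it passed the filter only through KO, and Bcar1 too would not have passed on its WT libraries alone. The part of stromal cells in the counts of Bcar1 and Twist1 was not tested.

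**Figure D5:**
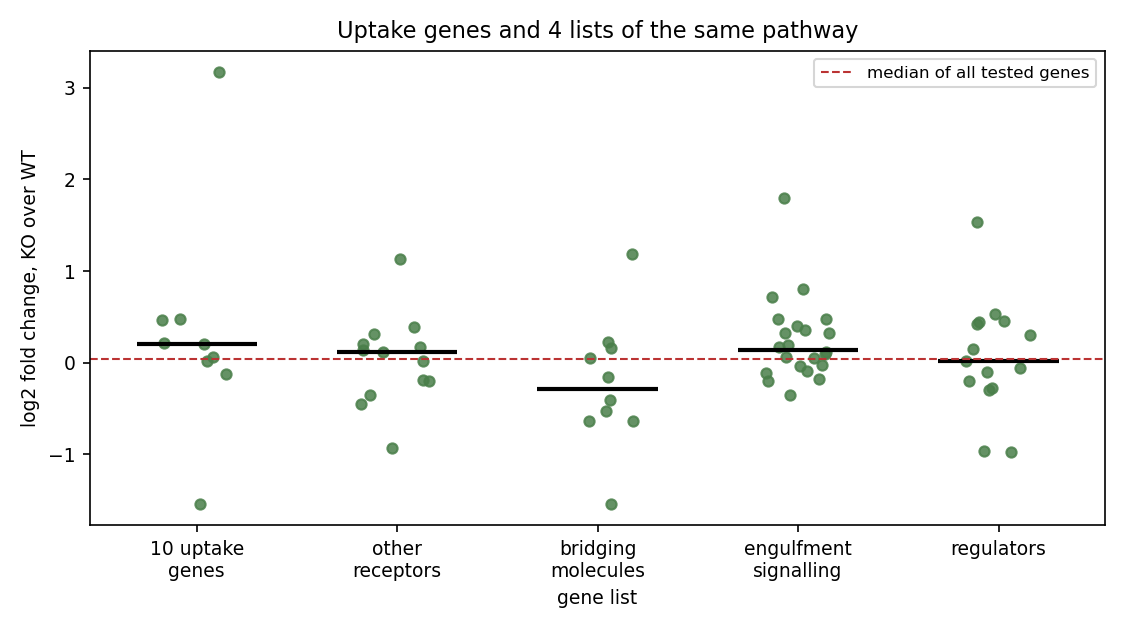
Log2 fold change of KO over WT for each tested gene (green points) of the members and of the 4 other lists, with the median of each list (black line) and that of all tested genes (dashed line, 0.041). List medians run from -0.28 for the bridging molecules to 0.21 for the members, whose highest point is Gulp1 at 3.17.

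By profile over the 4 libraries, measured as the root mean squared difference of centred log2 CPM from the 60 tested genes of these lists, Mertk was nearest to Lrp1 (0.19) and Axl to Rhog (0.21). Gas6 was nearest to Ppard (0.023), Pros1 to Scarb1 (0.042), Dock1 to Ggcx (0.048), and both Mfge8 and Elmo1 to Dock2 (0.041 and 0.056). Timd4 was nearest to Socs3 (0.66) and Gulp1 to Bcar1 (0.62). A distance grows with the spread of the gene itself, whose own root mean square was 1.62 for Timd4, 1.60 for Gulp1, 0.65 for Axl, 0.43 for Mertk and 0.12 to 0.33 for the others. These distances describe 4 libraries only.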

How the data were processed

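Total RNA of 4 libraries (2 WT, 2 KO) was sequenced on an Illumina NovaSeq. Per the study's methods and the submitters' processing notes, reads were filtered with Seqtk, aligned with HISAT2 2.0.4 and counted with StringTie 1.3.3b. The authors deposited raw counts per gene, and beside them FPKM values. The deposited FPKM implied a single length per gene in all libraries, to within 0.00711% over 11292 genes (those above 10 counts in each). The notes name build mm39, but the positions in the table are those of GRCm38, with 27686 of 34745 genes matching GENCODE M21 in start and end, so GRCm38 is used here. For 3 members a boundary differed from M21 (Gas6, Elmo1 and Dock1), and exon numbers come from M21. Whether strand was used in counting is not given in the sources used here.

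The analysis of counts used edgeR 4.0.16 under R 4.3.3. Of 17991 genes with any count, filterByExpr (minimum count 10, minimum total 15) kept 12418. TMM factors ranged from 0.942 to 1.11. Genotype was tested with glmQLFit and glmQLFTest (two-sided, Benjamini-Hochberg), and a call needed an adjusted p below 0.05 with a log2 fold change beyond 1 in size, the limits of the study's methods. Ratios within a library number had 0.5 counts added. The 10 members, the 4 pathway lists and the marker lists were chosen with earlier results of these data known. Named genes were the members, G3bp1, Tyro3, list genes with an unadjusted p under 0.05 and separate groups (up to 4 per direction), the nearest profile of each member, and the 4 most abundant genes of a marker list. Other genes were named with their values in view. Labels do not say that libraries of a genotype came from separate mice, so p-values measure the spread between these libraries. Alternatives were DESeq2 1.42.0 (size factors, and its Wald test), the exact test, limma 3.58.1 on log2(FPKM + 1) and log2(FPKM + 0.1) (both limited to genes reaching 0.1 FPKM in 2 libraries), no filter, no minimum fold change, a replicate term, a loess correction for gene length (span 0.5) and each library left out. The code was tested on simulated data.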

Additional observations from a re-analysis of the deposited data

How the results depend on the processing

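Gulp1, Dock1, Gas6 and Mfge8 stayed above 0 in all 13 alternatives. Mfge8 fell to 0.031 with the length correction, though, and Gas6 to 0.11 without KO replicate 1. Wherever the filter on low counts was used, the sign of Gulp1 was partly fixed, since it passed only through its KO libraries. The limma limit of 0.1 FPKM was likewise reached only by its KO libraries. Of the 9 members only Gulp1 was called in any alternative, by the edgeR exact test (log2 fold change 3.17) and with the replicate block (3.17, edgeR adjusted p 0.000804), 1 member each. With the length correction added to the block the call of Gulp1 ended (3.01, edgeR adjusted p 0.0545), and the DESeq2 Wald test did not make it (3.20, adjusted p 0.251). Its adjusted p ran from 0.000804 to about 1.00 over its alternatives, and its difference was 0.19 on the log2(FPKM + 1) scale, which understates changes of low genes. The number of all genes called was 0 in the main test but 181 with the DESeq2 Wald test, 229 with the exact test, 2 with limma on log2(FPKM + 0.1), 664 with the replicate block and 359 with the replicate block and gene length correction, and the cause was not tested. At an unadjusted p under 0.05 the main test had 823 genes.

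The libraries share only a number in their labels, and 2 pairs are too few to establish pairing. After subtracting each genotype's mean, WT and KO libraries of the same number had a correlation of 0.692 over the 12418 genes. With the replicate block, 2 of the 10 tested bridging molecules were called (C3 higher, Ptx3 lower). So was 1 of the 22 engulfment signalling genes (Bcar1), where the block called 5.35% of all tested genes. With the length correction added, only C3 of these was called, against 2.89% of all tested genes. The block gave no call among the other receptors and regulators, and changed no other member's call. G3bp1 gave -0.60 with the block (edgeR adjusted p 0.0853) and -0.76 with the length correction added (edgeR adjusted p 0.0345).

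The length correction moved the log2 fold change of all genes by a median of -0.11. With it the value was -0.13 for Axl, -0.035 for Pros1 and -0.011 for Elmo1, and with the block added -0.036, -0.040 and -0.015. Axl also gave -0.0098 with DESeq2 size factors and -0.0099 in the DESeq2 Wald test. With each library left out, values ran from -0.80 to 0.33 for Mertk, -0.56 to 0.99 for Axl, -0.096 to 0.20 for Pros1, -2.50 to 1.86 for Timd4 and 2.60 to 4.08 for Gulp1. The sign turned without WT replicate 1 or KO replicate 2 for Mertk and Axl, without WT replicate 2 or KO replicate 1 for Pros1, and without WT replicate 2 for Timd4. In these fits the lone library is assumed to vary like the pair. The counts of Gulp1, Megf10 and Tyro3 were low in every library, at most 23.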
